A study of Mus musculus with 36 samples.

Results

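The genes described here are 37 genes of glycolysis, glycogen and lactate metabolism in cultured mouse astrocytes. They were taken as all probes that carry a member's symbol in the deposited probe annotation. Of the 37 members, 35 had a probe and 33 entered the fit of 18937 genes. Hk2 and Ldhb had no probe under their symbols and were not analysed here, and the probes of Pygm and Pck2 did not pass the filter on dim probes. The 35 members had 59 of the 45281 probes, and 50 of these passed the filter. In the fit stood 2 members of glucose uptake, 7 of upper glycolysis and its regulators, 7 of lower glycolysis, 3 of lactate handling, 7 of glycogen metabolism, 3 of gluconeogenic steps and 4 of the pentose phosphate pathway.

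The study asked which mRNAs corticosterone regulates in astrocytes and which of these changes RU486 antagonizes. Corticosterone is the main glucocorticoid of mice, and RU486 (mifepristone) blocks the glucocorticoid receptor. All arrays held total RNA of primary cortical astrocyte cultures from C57B/6 pups of P0-P2, grown in medium with serum until nearly confluent, with no genetic change named in the labels. The 36 Illumina arrays fall into 12 groups of 3: 100 nM corticosterone with 500 nM RU486, 100 nM corticosterone, 500 nM RU486, or vehicle, each for 2, 4 or 6 h. The medium held serum in every group, vehicle included, and the growth protocol names cortex or hippocampus as the source while each sample is called cortical. The labels do not say whether replicates were separate cultures, so the p-values cover no more than the variation among these arrays, part of which may be technical. The arrays measured bulk RNA, in which fewer cells of a type and less RNA per cell cannot be told apart.

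Glycolysis splits glucose into pyruvate, and lactate dehydrogenase turns pyruvate into lactate. Astrocytes are the glycolytic cells of the brain: they take up glucose from capillaries, export lactate to neurons and hold nearly all of the brain's glycogen. In liver, glucocorticoids are known to raise glycogen storage and glucose production, while in many peripheral cells they curb glucose uptake.

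RefSeq promoters (assembly GRCm38.p6, 250 bases before to 50 after a gene's start) were found for 36 of the 37 members, 51 promoters in all. Each was searched on both strands for a full glucocorticoid response element (GNACA and TGTNC with 3 bases between them), for the arm AGAACA, for the core of the hypoxia response element ACGTG, and for the E box CACGTG, which holds ACGTG within it. The full element was found in 0 of the 51, against 0.475% of all 32851 promoters. AGAACA was in 10 of the 51 (19.6%), against 19.0% of all. ACGTG was in 26 of the 51 (51.0%), in 22 genes, against 19.6% of all, and CACGTG in 8 of the 51 (15.7%), against 7.15% of all. Promoters of one gene overlap in part, a match is a description and not a binding site, and a window of 300 bases leaves out distant elements. The members' promoters and all promoters were not matched for base composition, and its part in these shares was not tested. The 4 sequences below belong to members called in several of the comparisons that follow, Slc2a1, Ldha, Ppp1r3c and Gapdh. They are written 5′ to 3′ on the gene's strand, with matches in capitals (the core ACGTG, read as CACGT on the other strand, the E box, and the arm AGAACA, read as TGTTCT on the other strand).
Slc2a1, chr4:119108495-119108794, plus strand: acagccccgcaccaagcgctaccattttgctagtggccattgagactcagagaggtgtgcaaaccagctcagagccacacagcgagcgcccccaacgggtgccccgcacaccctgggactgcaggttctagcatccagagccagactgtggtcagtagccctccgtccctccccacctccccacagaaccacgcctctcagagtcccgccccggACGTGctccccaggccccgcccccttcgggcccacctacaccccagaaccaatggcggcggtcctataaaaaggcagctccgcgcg
Ldha, the upstream start, chr7:46845554-46845853, plus strand: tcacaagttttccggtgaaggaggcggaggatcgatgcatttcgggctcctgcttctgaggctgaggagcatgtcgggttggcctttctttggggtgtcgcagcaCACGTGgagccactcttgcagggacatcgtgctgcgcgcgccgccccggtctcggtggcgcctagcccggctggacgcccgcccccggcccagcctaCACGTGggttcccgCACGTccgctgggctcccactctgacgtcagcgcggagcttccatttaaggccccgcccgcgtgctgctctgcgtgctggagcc
Ppp1r3c, chr19:36736555-36736854, minus strand: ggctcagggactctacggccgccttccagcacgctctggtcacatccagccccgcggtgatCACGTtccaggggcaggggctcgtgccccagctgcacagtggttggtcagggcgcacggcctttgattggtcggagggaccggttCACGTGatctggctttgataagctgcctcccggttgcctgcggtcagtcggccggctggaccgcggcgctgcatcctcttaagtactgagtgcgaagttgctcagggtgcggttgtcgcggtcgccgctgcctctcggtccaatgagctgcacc
Gapdh, chr6:125165724-125166023, minus strand: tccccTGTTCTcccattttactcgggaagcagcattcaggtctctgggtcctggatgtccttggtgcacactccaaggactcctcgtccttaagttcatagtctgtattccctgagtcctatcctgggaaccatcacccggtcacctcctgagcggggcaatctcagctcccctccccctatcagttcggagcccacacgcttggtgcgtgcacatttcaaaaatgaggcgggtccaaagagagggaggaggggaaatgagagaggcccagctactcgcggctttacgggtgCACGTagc
The Ldha sequence shows CACGTG at 2 places and a further CACGT, the Ppp1r3c sequence shows CACGTG and a separate CACGT, and the Slc2a1 sequence shows a lone ACGTG. The downstream promoter of Ldha, chr7:46846832-46847131, held no match and is not shown.

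Values are log2 of the deposited normalized intensity of a gene's brightest probe. A change is a difference of group means on that scale, given with its standard error (SE) from limma's fit of all 12 groups and called at an adjusted p under 0.05 over all 18937 genes. A change over the times is the mean of those at 2, 4 and 6 h. 2 arrays stood apart from the rest, corticosterone with RU486 6 h replicate 3 and vehicle 6 h replicate 1. Their median correlations with the other arrays were 0.858 for the array with both agents and 0.727 for the vehicle array, against 0.952 to 0.989 for the other 34. The labelled cell type was looked at through fixed marker lists, by each gene's median log2 intensity over the 34 arrays. Of 10 astrocyte markers 9 were in the fit, with medians between 7.51 (Glul) and 14.85 (Slc1a3). The 6 of 8 neuron markers in the fit lay between 6.92 (Tubb3) and 12.12 (Map2), and all 7 of the oligodendrocyte lineage between 7.18 (Olig2) and 14.57 (Olig1). The 5 of 7 microglia markers lay between 7.86 (C1qa) and 9.40 (C1qb), the 5 of 6 fibroblast or meningeal markers between 6.68 (Col3a1) and 9.09 (Col1a1), and the 4 of 5 endothelial markers between 6.57 (Kdr) and 6.89 (Cdh5). Levels of different probes are not comparable, so these ranges give no order of cell types. As a check of the treatment, all 6 glucocorticoid response genes of a fixed list (Fkbp5, Tsc22d3, Sgk1, Per1, Klf9 and Zbtb16) rose with corticosterone over the times and fell when RU486 was added, in the fits with and without the 2 arrays.

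On the 2 arrays a larger share of glucose genes than of all genes lay below the range of the other arrays. These arrays were set aside with earlier results of glucose genes known. The members and all genes were not matched for brightness, and the part of brightness in these shares was not tested. On corticosterone with RU486 6 h replicate 3, 12 of the 33 members (36.4%) lay below all of the other 34 arrays, against 16.6% of all genes, and 7 members (21.2%) lay above them, against 36.9% of all genes. On vehicle 6 h replicate 1, 18 members (54.5%) lay below all 34, against 25.6% of all genes, and 7 (21.2%) lay above, against 43.7%. 11 members were below the 34 on both arrays and 6 above on both. Eno1, the housekeeping enolase, read 7.40 on the array with both agents and 6.57 on the vehicle array, against 12.39 to 13.57 on the others. Pfkp, the platelet-type phosphofructokinase, read 6.36 on the array with both agents and 6.50 on the vehicle array, against 10.63 to 12.38. Pygb, brain glycogen phosphorylase, read 10.51 on the array with both agents and 9.86 on the vehicle array, against 11.82 to 13.14. The 6 members above on both were Slc2a3, Pfkfb2, Pfkfb3, Slc16a3, Pygl and Fbp1. Markers lay outside the range of the 34 in both directions. Of the 9 astrocyte markers, 2 were below and 1 above on the array with both agents, and 4 below and 3 above on the vehicle array. Aldh1l1 was below on both (7.49 on the array with both agents and 7.71 on the vehicle array, against 10.54 to 11.50), as was Fgfr3, and Gja1 was above on both (14.03 on the array with both agents and 14.76 on the vehicle array, against up to 13.93). Of the 6 neuron markers, 6 were above on the array with both agents and 3 on the vehicle array. Of the 5 microglia markers, 1 was below on the array with both agents and 4 on the vehicle array. Of the 7 oligodendrocyte lineage markers, 2 were above on the array with both agents, and 4 were above and 1 below on the vehicle array. Among the 5 fibroblast or meningeal markers, 3 were above on the array with both agents, and 2 above and 2 below on the vehicle array. Among the 4 endothelial markers, 2 were above on the array with both agents and 3 on the vehicle array. What set these arrays apart was not tested, and the results that rest on them are given for all 36 arrays and for the 34.

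**Figure D1:**
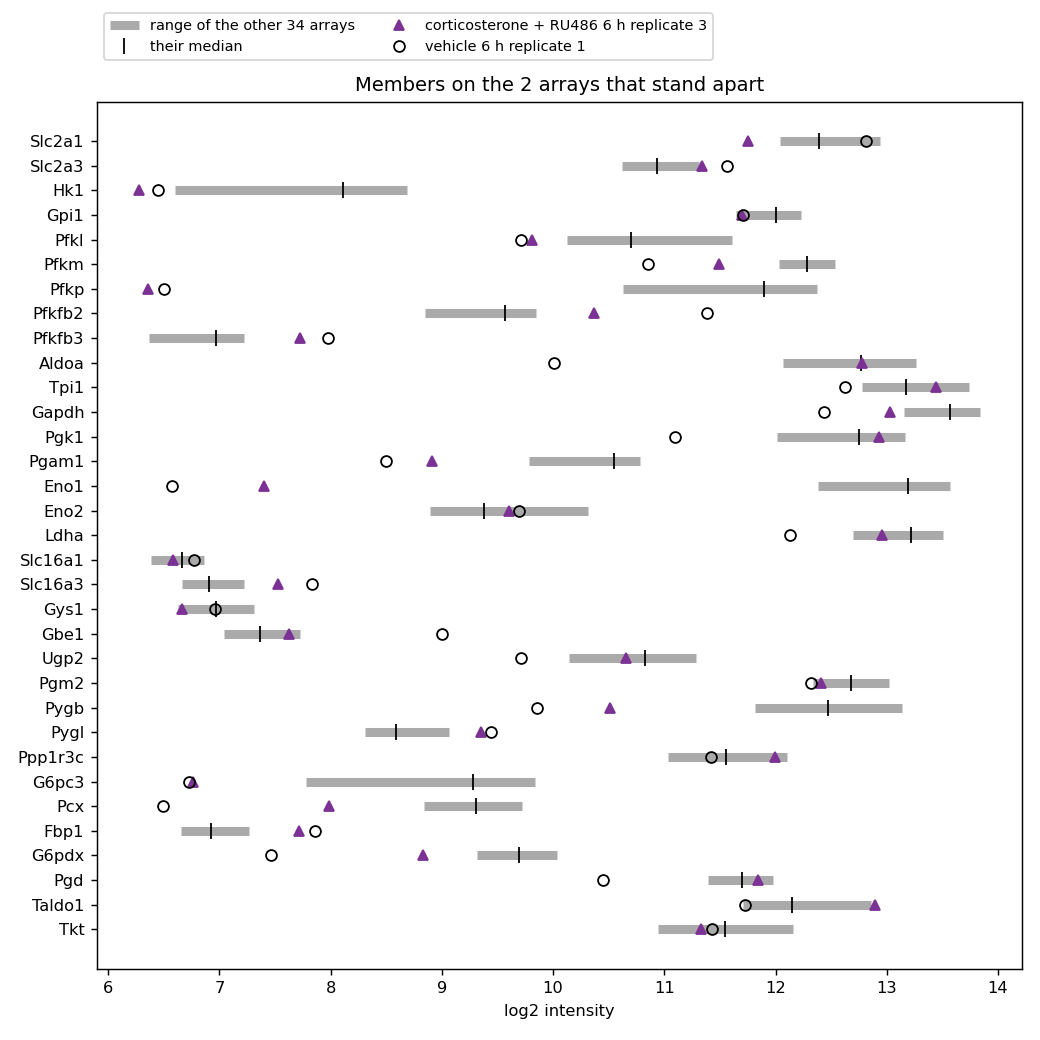
Log2 intensity (x axis) of the 33 members in the fit (rows). Grey bars span the 34 other arrays with their median as a tick, triangles are corticosterone with RU486 6 h replicate 3 and open circles are vehicle 6 h replicate 1. Eno1 and Pfkp lie furthest below the range of the 34 on both arrays, and Pfkfb2 furthest above it.

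With all 36 arrays, corticosterone moved a single glucose gene past the threshold: Ppp1r3c, which encodes PTG, the scaffold that brings protein phosphatase to glycogen, fell over the times. By limma 0 of 33 members were called at 2 h (0.121% of all genes), 0 at 4 h (0.829%) and 0 at 6 h (1.01%). Before adjustment 0, 4 and 4 members had a p under 0.05 at these times. For unadjusted counts, here and below, the share of all genes is not given. They therefore do not set the members apart from other genes. Over the mean of the 3 times 1 member was called (3.03% of the members and 2.96% of all genes). The median log2 change was 0.070 over the members and -0.032 over all genes. Without the 2 arrays, 0 members were called at 2 h (0.676% of all genes, with an unadjusted p under 0.05 for 4 members). There were 6 calls at 4 h (8.83%) and 1 at 6 h (1.55%), and for the mean of the times there were 6 (12.4%). Over the times the 6 were Slc2a1, which rose, and Gapdh, Ldha, Ugp2, Ppp1r3c and G6pdx, which fell, 18.2% of the members. The median log2 change was then 0.0054 over the members and -0.0037 over all genes.

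Adding RU486 to corticosterone moved lactate dehydrogenase and several other glucose genes past the threshold, some up and some down. In most of these comparisons the share of members called was near that of all genes. With all 36 arrays 0 of 33 members were called at 2 h (0.782% of all genes, with an unadjusted p under 0.05 for 4 members), 2 at 4 h (3.15%) and 0 at 6 h (1.4%, with an unadjusted p under 0.05 for 2 members). The mean of the times gave 4 calls (12.1% of the members and 12.9% of all genes). Ldha and Ugp2 rose over the times and Slc2a1 and Tkt fell. Without the 2 arrays there were 4 calls at 2 h (12.1% of the members and 10.3% of all genes) and 6 at 4 h (18.2% of each). There were 2 at 6 h (6.06% of the members and 4.47% of all genes), and for the mean of the times 13 (31.2% of all genes). The 13 were 39.4% of the members, 7 higher (Aldoa, Gapdh, Eno1, Ldha, Ugp2, Pygb and G6pdx) and 6 lower (Slc2a1, Slc2a3, Gpi1, Tpi1, Eno2 and Tkt). The median log2 change was -0.024 over the members and -0.011 over all genes. Both kinds of comparison use the same corticosterone arrays, so their opposite signs are not independent.

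**Figure D2:**
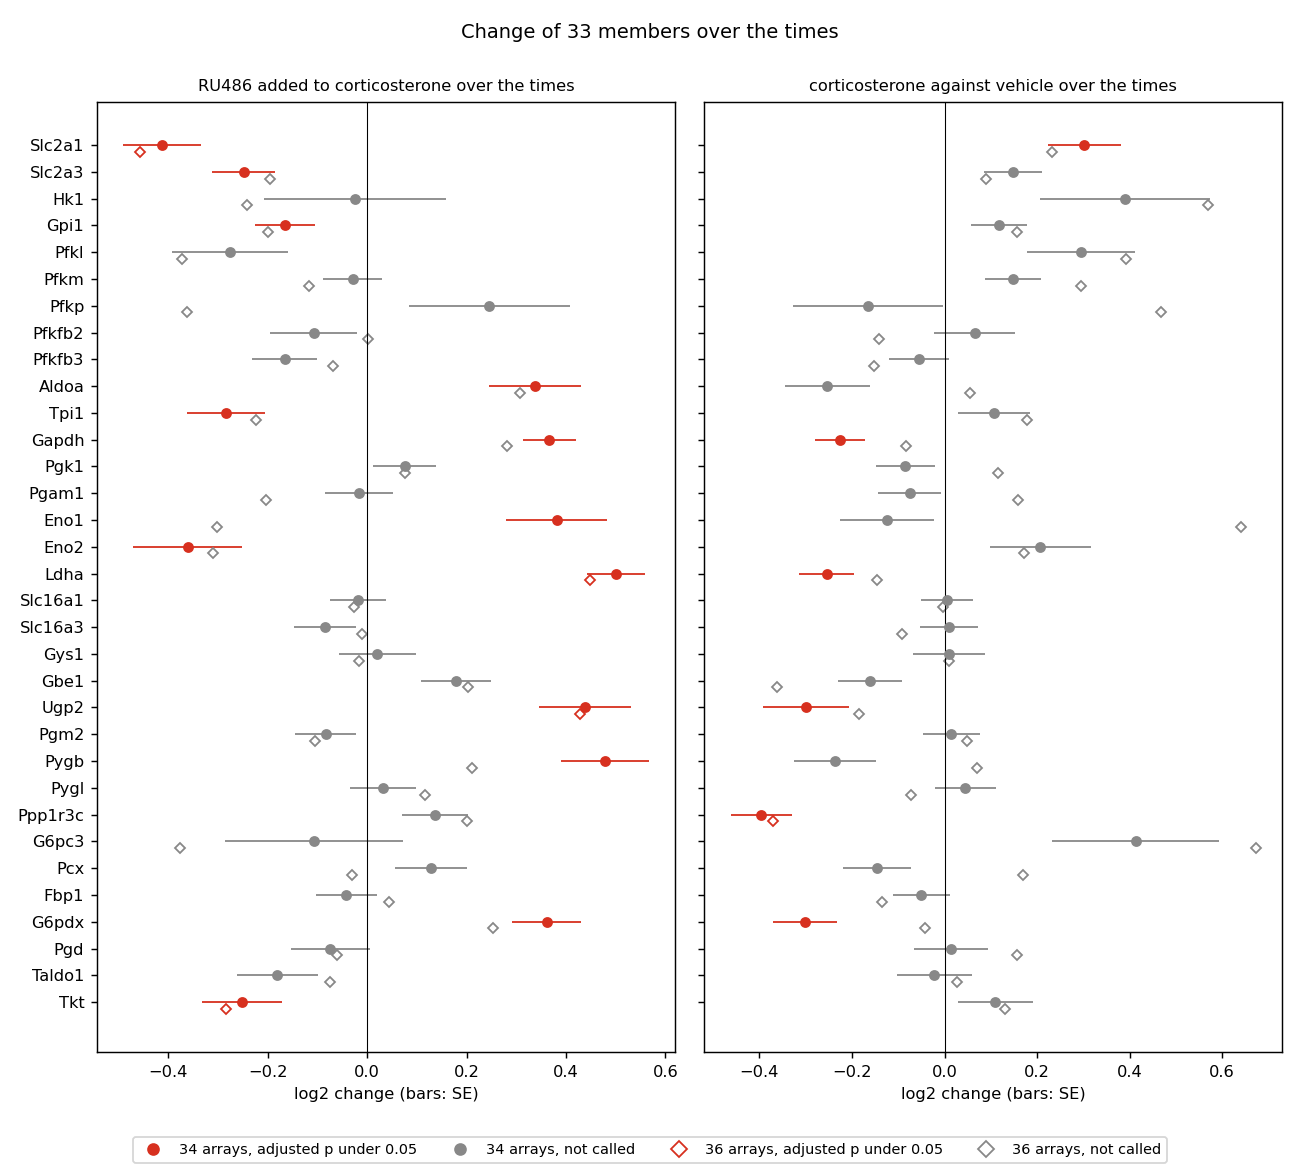
Log2 change over the 3 times (x axis) of the 33 members (rows), with RU486 added to corticosterone on the left and with corticosterone against vehicle on the right. Dots with SE bars are the fit of 34 arrays and diamonds that of 36, and red marks an adjusted p under 0.05. Ldha is furthest right and Slc2a1 furthest left among the dots of the left panel, and Ppp1r3c is furthest left in the right panel.

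Glucose enters astrocytes through GLUT1, encoded by Slc2a1, and neurons mainly through GLUT3, encoded by Slc2a3. Slc2a1 was lower with both agents than with corticosterone at every time. At 2 h it read 12.15, 12.41 and 12.37 with both agents, 12.48, 12.60 and 12.94 with corticosterone, 12.92, 12.88 and 12.78 with RU486 and 12.44, 12.51 and 12.49 with vehicle. At 4 h the log2 intensities were 12.21, 12.16 and 12.15 with both agents, 12.43, 12.70 and 12.76 with corticosterone, 12.42, 12.10 and 12.04 with RU486 and 12.28, 12.34 and 12.25 with vehicle. At 6 h they were 12.21, 12.09 and 11.75 with both agents, 12.78, 12.63 and 12.28 with corticosterone, 12.24, 12.07 and 12.49 with RU486 and 12.82, 12.35 and 12.04 with vehicle. At each time the arrays with both agents lay below all of those with corticosterone, and at 4 h those with corticosterone lay above all of those with vehicle. Over the times Slc2a1 fell 1.37-fold when RU486 was added (log2 change -0.46 ± 0.094, SE, adjusted p = 0.00136) with 36 arrays and by 1.33-fold (-0.41 ± 0.078, adjusted p = 2.03e-04) with 34. The first call held in 18 of 18 refits that each dropped an array, and the other held in 17 of 17 refits that each dropped a further array. The call at 4 h alone (-0.46 ± 0.13, adjusted p = 0.0147, 34 arrays) held in 3 of 6 refits that each dropped a further array and was lost without corticosterone 4 h replicates 2 and 3 or corticosterone with RU486 4 h replicate 3 (adjusted p up to 0.0714). Against vehicle, corticosterone alone gave 0.23 ± 0.094 with 36 arrays (adjusted p = 0.216), and 0.30 ± 0.078 with 34 (adjusted p = 0.0107). The call over 34 arrays held in 16 of 17 refits that each dropped a further array and was lost without vehicle 6 h replicate 3 (adjusted p = 0.0858). RU486 alone was not called at any time, although all 3 of its 2 h arrays lay above the 3 vehicle arrays.

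The fall of Slc2a3 when RU486 was added was called in the fit of 34 arrays only. With 34 arrays its level was lower when RU486 was added over the times (-0.25 ± 0.063, adjusted p = 0.00325), a call that held in 17 of 17 refits that each dropped a further array. With 36 arrays the change was -0.20 ± 0.081 (adjusted p = 0.121). Corticosterone against vehicle gave 0.15 ± 0.063 with 34 arrays (adjusted p = 0.134).

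**Figure D3:**
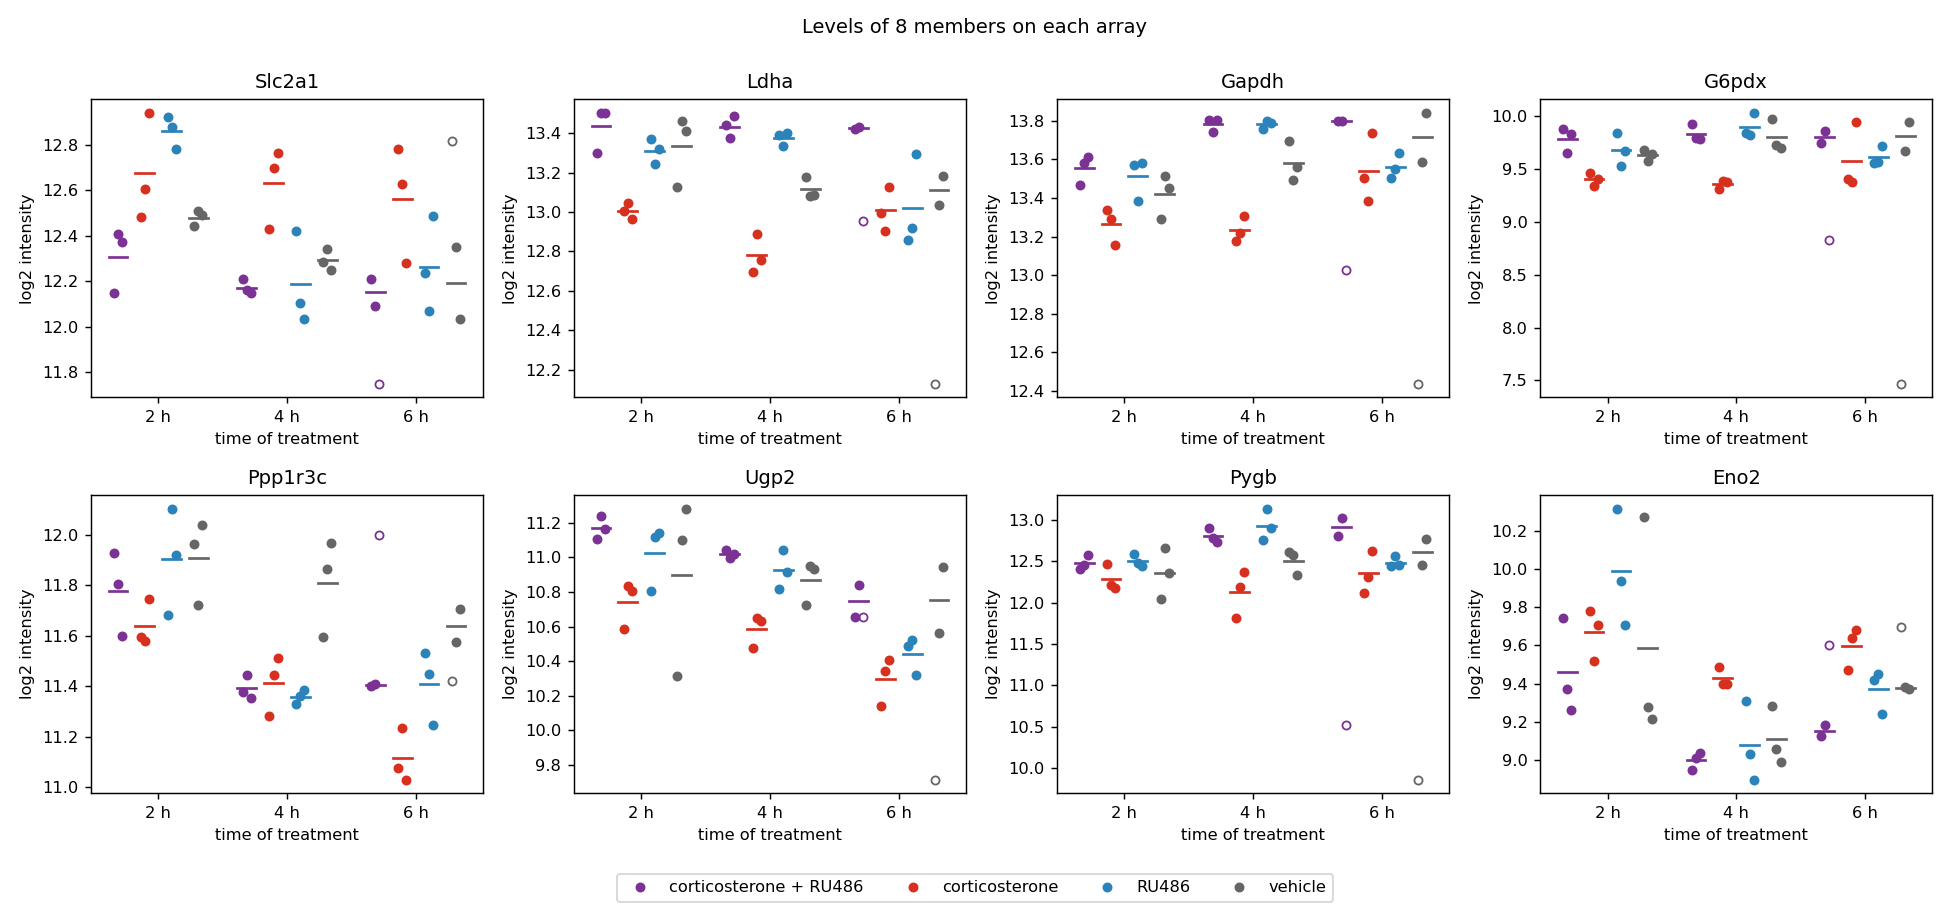
Log2 intensity (y axes) of 8 members on each of 36 arrays at 2, 4 and 6 h (x axes), with both agents, corticosterone, RU486 and vehicle from left to right at each time. Open circles are the 2 arrays that stood apart and bars are group means without them. Slc2a1 is lower with both agents than with corticosterone at each time, and Ldha is higher apart from the open circle at 6 h.

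Upper glycolysis, from hexokinase to the phosphofructokinases and the bifunctional enzymes that set their activator, held 7 members in the fit. Over the times 0 of 7 were called with corticosterone with 36 arrays (2.96% of all genes) and 0 with 34 (12.4%). When RU486 was added 0 of 7 were called with 36 arrays (12.9% of all genes) and 1 with 34 (31.2%), Gpi1 (glucose-6-phosphate isomerase). Gpi1 changed by -0.17 ± 0.060 (adjusted p = 0.0357, against 0.0537 with 36 arrays), and the call held in 10 of 17 refits that each dropped a further array and was lost without corticosterone 2 h replicate 1, corticosterone with RU486 2 h replicate 3, corticosterone 4 h replicate 3, corticosterone with RU486 4 h replicate 3, corticosterone 6 h replicate 1, or corticosterone with RU486 6 h replicates 1 and 2 (adjusted p up to 0.083). The changes of the other 6 members (Hk1, Pfkl, Pfkm, Pfkp, Pfkfb2 and Pfkfb3) lay between -0.28 for Pfkl and 0.25 for Pfkp when RU486 was added, and between -0.16 for Pfkp and 0.39 for Hk1 with corticosterone, all on the log2 scale over 34 arrays. Pfkfb3, the bifunctional enzyme that drives glycolysis in astrocytes, gave -0.055 ± 0.065 with corticosterone. Its probe was dim, with a median of 6.97, so a change may be understated.

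Lower glycolysis, from aldolase to enolase, split in its direction. With RU486 added to corticosterone, 3 of its 7 members rose over the times with 34 arrays (Aldoa, Gapdh and Eno1), 2 fell (Tpi1 and Eno2) and 2 were not called, while 31.2% of all genes were called. With 36 arrays 0 of 7 were called (12.9% of all genes). With corticosterone 1 of 7 was called over the times with 34 arrays (12.4% of all genes) and 0 with 36 (2.96%). Gapdh, the dehydrogenase at the centre of the pathway, read at 2 h 13.47, 13.58 and 13.61 with both agents, 13.34, 13.29 and 13.16 with corticosterone, 13.57, 13.38 and 13.58 with RU486 and 13.29, 13.52 and 13.45 with vehicle. At 4 h it read 13.81, 13.74 and 13.81 with both agents, 13.18, 13.22 and 13.31 with corticosterone, 13.76, 13.80 and 13.79 with RU486 and 13.69, 13.50 and 13.56 with vehicle. The 6 h arrays gave 13.80, 13.80 and 13.03 with both agents, 13.50, 13.38 and 13.74 with corticosterone, 13.50, 13.55 and 13.63 with RU486 and 12.44, 13.59 and 13.84 with vehicle. At 2 and 4 h every array with both agents lay above every array with corticosterone, and at 4 h every corticosterone array lay below every vehicle array. At 6 h replicates 1 and 2 with both agents lay above the corticosterone arrays and replicate 3, the array that stood apart, lay below them. With RU486 added Gapdh rose 1.29-fold over the times with 34 arrays (0.37 ± 0.053, adjusted p = 7.89e-06), against 0.28 ± 0.12 with 36 (adjusted p = 0.153). The call over 34 arrays held in 17 of 17 refits that each dropped a further array. At 4 h the rise (0.55 ± 0.089, adjusted p = 1.25e-04) held in 6 of 6 refits that each dropped a further array, and at 2 h the rise (0.29 ± 0.089, adjusted p = 0.0353) held in 2 of 6 refits that each dropped a further array and was lost without corticosterone 2 h replicates 2 and 3 or corticosterone with RU486 2 h replicates 2 and 3 (adjusted p up to 0.159). With corticosterone alone Gapdh fell by 1.17-fold over the times (-0.23 ± 0.053, adjusted p = 0.00509, 34 arrays), and the call held in 16 of 17 refits that each dropped a further array and was lost without vehicle 6 h replicate 3 (adjusted p = 0.0558). The fall at 4 h (-0.35 ± 0.089, adjusted p = 0.0133) held in 4 of 6 refits that each dropped a further array and was lost without corticosterone 4 h replicate 1 or vehicle 4 h replicate 1 (adjusted p up to 0.0742). The mouse genome holds near-identical processed copies of Gapdh and a near-identical copy of Eno1, so probes for these 2 genes may bind more than their own mRNA.

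Aldoa, aldolase A, was lower with corticosterone than with vehicle on all 3 arrays at 4 h. The 2 h arrays read 12.84, 12.50 and 12.49 with both agents, 12.58, 12.33 and 12.25 with corticosterone, 12.77, 12.27 and 12.51 with RU486 and 12.07, 12.69 and 12.58 with vehicle. The 4 h arrays read 12.95, 12.97 and 12.91 with both agents, 12.44, 12.57 and 12.56 with corticosterone, 13.00, 12.97 and 13.14 with RU486 and 12.96, 13.19 and 13.26 with vehicle. At 6 h it read 13.01, 13.09 and 12.77 with both agents, 12.51, 12.48 and 13.05 with corticosterone, 12.77, 12.78 and 12.76 with RU486 and 10.01, 12.57 and 12.97 with vehicle. The fall at 4 h was -0.61 ± 0.15 with 34 arrays (adjusted p = 0.0117), and the call held in 3 of 6 refits that each dropped a further array and was lost without corticosterone 4 h replicate 1 or vehicle 4 h replicates 2 and 3 (adjusted p up to 0.0686). With 36 arrays the same change had an SE of 0.39 and an adjusted p of 0.745. When RU486 was added Aldoa rose over the times with 34 arrays (0.34 ± 0.092, adjusted p = 0.0058), and the call held in 17 of 17 refits that each dropped a further array. Over all 36 arrays the change was 0.31 ± 0.22 (adjusted p = 0.478).

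Eno1 and Eno2 encode enolases, Eno1 the form of most cells and Eno2 the form known as neuron-specific enolase, and with 34 arrays Eno1 rose and Eno2 fell when RU486 was added. At 2 h Eno1 read 13.05, 13.13 and 13.22 with both agents, 12.75, 12.92 and 12.89 with corticosterone, 12.39, 12.68 and 12.93 with RU486 and 12.45, 13.32 and 12.77 with vehicle. Its 4 h levels were 13.43, 13.39 and 13.56 with both agents, 12.93, 13.09 and 13.05 with corticosterone, 13.45, 13.46 and 13.57 with RU486 and 13.46, 13.16 and 12.58 with vehicle. Its 6 h levels were 13.55, 13.56 and 7.40 with both agents, 13.06, 12.99 and 13.32 with corticosterone, 13.28, 13.34 and 13.34 with RU486 and 6.57, 13.40 and 13.52 with vehicle. Apart from the array that stood apart, every array with both agents lay above every corticosterone array of its time. With 34 arrays Eno1 rose by 1.3-fold over the times (0.38 ± 0.10, adjusted p = 0.00483), and the call held in 17 of 17 refits that each dropped a further array. With 36 arrays the sign turned and the error grew, to -0.30 ± 0.69 (adjusted p = 0.878). For Eno2 the 2 h arrays read 9.75, 9.37 and 9.26 with both agents, 9.78, 9.52 and 9.71 with corticosterone, 10.32, 9.94 and 9.71 with RU486 and 10.27, 9.28 and 9.21 with vehicle. Those of 4 h read 8.95, 9.01 and 9.04 with both agents, 9.49, 9.40 and 9.40 with corticosterone, 9.31, 9.03 and 8.90 with RU486 and 9.28, 9.06 and 8.99 with vehicle. Those of 6 h read 9.12, 9.18 and 9.60 with both agents, 9.47, 9.64 and 9.68 with corticosterone, 9.42, 9.45 and 9.24 with RU486 and 9.69, 9.38 and 9.37 with vehicle. At 4 h the groups with both agents and with corticosterone did not overlap. Over the times Eno2 changed by -0.36 ± 0.11 with 34 arrays (adjusted p = 0.0123) and by -0.31 ± 0.11 with 36 (adjusted p = 0.0737), and the call over 34 arrays held in 17 of 17 refits that each dropped a further array.

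Tpi1, triosephosphate isomerase, fell when RU486 was added over 34 arrays (-0.28 ± 0.078, adjusted p = 0.00597), a call that held in 17 of 17 refits that each dropped a further array. The 36 arrays together gave -0.22 ± 0.10 (adjusted p = 0.153). At 2 h its brightest probe read 13.56, 13.12 and 13.11 with both agents, 13.56, 13.43 and 13.43 with corticosterone, 13.74, 13.44 and 13.36 with RU486 and 13.62, 13.07 and 13.08 with vehicle. At 4 h that probe read 12.92, 12.90 and 12.94 with both agents, 13.32, 13.15 and 13.21 with corticosterone, 13.11, 12.88 and 12.78 with RU486 and 13.20, 13.02 and 13.04 with vehicle. At 6 h that probe read 12.89, 12.91 and 13.44 with both agents, 13.41, 13.19 and 13.10 with corticosterone, 13.32, 13.34 and 13.15 with RU486 and 12.63, 13.28 and 13.26 with vehicle. At 4 h the groups with both agents and with corticosterone did not overlap. The 2 dimmer probes of Tpi1 gave 0.026 ± 0.055 and -0.16 ± 0.087 and were not called. The phosphoglycerate enzymes Pgk1 and Pgam1 were called in neither comparison over the times: with 34 arrays Pgk1 gave 0.075 ± 0.064 when RU486 was added and -0.085 ± 0.064 with corticosterone. Pgam1 gave -0.017 ± 0.068 when RU486 was added and -0.076 ± 0.068 with corticosterone.

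Ldha, the lactate dehydrogenase subunit that favours lactate formation, had the largest change of the 33 members over the times when RU486 was added, in the fit of 34 arrays. Its 2 h readings were 13.30, 13.50 and 13.50 with both agents, 13.01, 13.05 and 12.97 with corticosterone, 13.37, 13.25 and 13.32 with RU486 and 13.13, 13.46 and 13.41 with vehicle. Its 4 h readings were 13.44, 13.38 and 13.49 with both agents, 12.70, 12.89 and 12.76 with corticosterone, 13.39, 13.34 and 13.40 with RU486 and 13.18, 13.08 and 13.09 with vehicle. The 6 h arrays read 13.42, 13.43 and 12.95 with both agents, 13.00, 12.90 and 13.13 with corticosterone, 12.86, 12.92 and 13.29 with RU486 and 12.13, 13.04 and 13.18 with vehicle. At 2 and 4 h the 3 corticosterone arrays lay below all 9 others of their time. At 6 h the arrays with both agents lay above the corticosterone arrays except for replicate 3, the array that stood apart. Over the times Ldha rose 1.36-fold when RU486 was added (0.45 ± 0.10, adjusted p = 0.00272) with 36 arrays and 1.41-fold (0.50 ± 0.059, adjusted p = 3.63e-07) with 34. The first call held in 18 of 18 refits that each dropped an array, and the other held in 17 of 17 refits that each dropped a further array. By time with 34 arrays, the rise was 0.43 ± 0.10 at 2 h (adjusted p = 0.00697), 0.65 ± 0.10 at 4 h (adjusted p = 5.07e-05) and 0.42 ± 0.11 at 6 h (adjusted p = 0.0236). The calls at 2 and 4 h held in 6 of 6 refits that each dropped a further array, and that at 6 h held in 1 of 5 refits that each dropped a further array and was lost without corticosterone 6 h replicates 1 and 2 or corticosterone with RU486 6 h replicates 1 and 2 (adjusted p up to 0.214). With 36 arrays only the 4 h rise was called (adjusted p = 0.0322), and that call was lost whichever of the 6 arrays was left out (adjusted p up to 0.15).

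Against vehicle, corticosterone lowered Ldha over the times with 34 arrays, by 1.19-fold (-0.25 ± 0.059, adjusted p = 0.00421), and the call held in 17 of 17 refits that each dropped a further array. With 36 arrays the change was -0.15 ± 0.10 (adjusted p = 0.507). The fall at 4 h (-0.34 ± 0.10, adjusted p = 0.0297, 34 arrays) held in 1 of 6 refits that each dropped a further array and was lost without corticosterone 4 h replicates 1 and 3 or vehicle 4 h replicates 1, 2 and 3 (adjusted p up to 0.149). The monocarboxylate transporters that carry lactate across the membrane, Slc16a1 (MCT1) and Slc16a3 (MCT4), were not called: with 34 arrays Slc16a1 gave -0.018 ± 0.056 when RU486 was added and 0.005 ± 0.056 with corticosterone. Slc16a3 gave -0.085 ± 0.062 when RU486 was added and 0.010 ± 0.062 with corticosterone. Both probes were dim, with medians of 6.67 for Slc16a1 and 6.91 for Slc16a3, where a change is understated because no background had been subtracted.

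**Figure D4:**
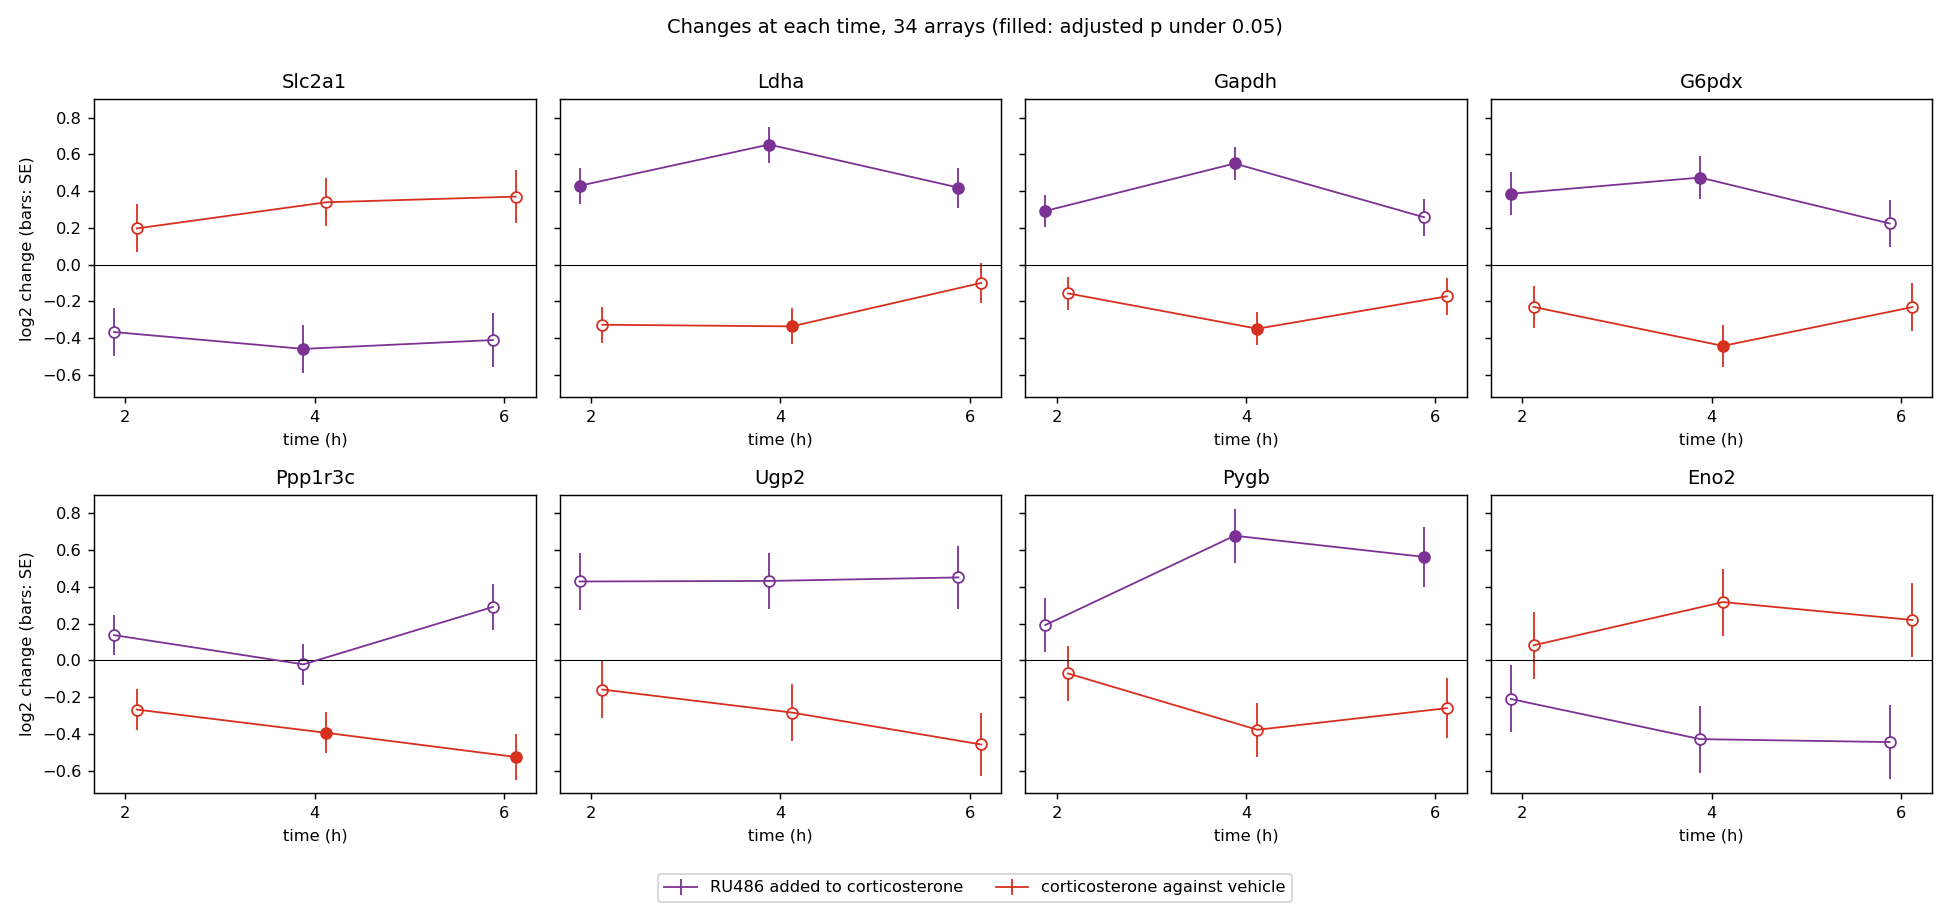
Log2 change with its SE (y axes) of 8 members at 2, 4 and 6 h (x axes), 34 arrays, for RU486 added to corticosterone (purple) and for corticosterone against vehicle (red). Filled points have an adjusted p under 0.05. Ldha is filled at all 3 times when RU486 was added, and Ppp1r3c is filled at 4 and 6 h with corticosterone.

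Of the glycogen genes, Ppp1r3c was the member that corticosterone lowered in both fits. At 2 h it read 11.93, 11.81 and 11.60 with both agents, 11.59, 11.58 and 11.75 with corticosterone, 11.68, 12.10 and 11.92 with RU486 and 11.96, 11.72 and 12.04 with vehicle. At 4 h it read 11.38, 11.45 and 11.35 with both agents, 11.28, 11.45 and 11.51 with corticosterone, 11.33, 11.36 and 11.39 with RU486 and 11.60, 11.86 and 11.97 with vehicle. Its 6 h readings were 11.40, 11.41 and 11.998 with both agents, 11.08, 11.24 and 11.03 with corticosterone, 11.53, 11.45 and 11.25 with RU486 and 11.42, 11.57 and 11.71 with vehicle. The corticosterone arrays lay below all vehicle arrays at 4 and at 6 h and overlapped them at 2 h. Over the times Ppp1r3c fell 1.29-fold (-0.37 ± 0.080, adjusted p = 0.0066) with 36 arrays and 1.32-fold (-0.40 ± 0.067, adjusted p = 1.55e-04) with 34. The first call held in 18 of 18 refits that each dropped an array, and the other held in 17 of 17 refits that each dropped a further array. At 4 h the change was -0.39 ± 0.11 (adjusted p = 0.0246, 34 arrays), a call that held in 3 of 6 refits that each dropped a further array and was lost without corticosterone 4 h replicate 1 or vehicle 4 h replicates 2 and 3 (adjusted p up to 0.157). At 6 h it was -0.53 ± 0.12 (adjusted p = 0.0194), a call that held in 1 of 5 refits that each dropped a further array and was lost without corticosterone 6 h replicates 1 and 3 or vehicle 6 h replicates 2 and 3 (adjusted p up to 0.476). With RU486 added to corticosterone, the change did not pass the threshold, with 0.20 ± 0.080 with 36 arrays (adjusted p = 0.107) and 0.14 ± 0.067 with 34 (adjusted p = 0.127). RU486 alone gave 3 arrays below all vehicle arrays at 4 h (-0.45 ± 0.11, adjusted p = 0.0212, 34 arrays), a call that held in 2 of 6 refits that each dropped a further array and was lost without vehicle 4 h replicates 2 and 3 or RU486 4 h replicates 2 and 3 (adjusted p up to 0.162).

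Ugp2 makes UDP-glucose, the donor for glycogen synthesis. The 2 h arrays read 11.11, 11.24 and 11.16 with both agents, 10.58, 10.83 and 10.81 with corticosterone, 10.81, 11.12 and 11.14 with RU486 and 10.31, 11.10 and 11.28 with vehicle. The 4 h arrays read 11.04, 10.99 and 11.02 with both agents, 10.47, 10.65 and 10.63 with corticosterone, 10.82, 11.04 and 10.92 with RU486 and 10.73, 10.95 and 10.93 with vehicle. At 6 h it read 10.66, 10.84 and 10.66 with both agents, 10.14, 10.34 and 10.40 with corticosterone, 10.49, 10.52 and 10.32 with RU486 and 9.71, 10.56 and 10.95 with vehicle. Every array with both agents lay above every corticosterone array of its time, the array that stood apart included. Ugp2 rose when RU486 was added over the times with 36 arrays (0.43 ± 0.12, adjusted p = 0.0156) and with 34 (0.44 ± 0.093, adjusted p = 6.35e-04). The first call held in 18 of 18 refits that each dropped an array, and the other held in 17 of 17 refits that each dropped a further array. Corticosterone alone gave -0.18 ± 0.12 with 36 arrays (adjusted p = 0.481) and lowered Ugp2 with 34 (-0.30 ± 0.093, adjusted p = 0.0325). That call held in 9 of 17 refits that each dropped a further array and was lost without corticosterone 2 h replicate 1, vehicle 2 h replicates 2 and 3, corticosterone 4 h replicate 1, vehicle 4 h replicates 2 and 3, corticosterone 6 h replicate 1, or vehicle 6 h replicate 3 (adjusted p up to 0.189).

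Pygb, the brain form of the phosphorylase that breaks glycogen down, read at 2 h 12.40, 12.46 and 12.57 with both agents, 12.47, 12.22 and 12.18 with corticosterone, 12.59, 12.48 and 12.45 with RU486 and 12.04, 12.67 and 12.37 with vehicle. Its 4 h readings were 12.91, 12.79 and 12.73 with both agents, 11.82, 12.20 and 12.38 with corticosterone, 12.75, 13.14 and 12.91 with RU486 and 12.61, 12.58 and 12.33 with vehicle. The 6 h arrays read 12.81, 13.03 and 10.51 with both agents, 12.12, 12.31 and 12.63 with corticosterone, 12.44, 12.56 and 12.46 with RU486 and 9.86, 12.46 and 12.77 with vehicle. At 4 h all 3 arrays with both agents lay above all 3 with corticosterone, and at 6 h the same held for the pair left once replicate 3 was set aside. When RU486 was added Pygb rose over the times with 34 arrays (0.48 ± 0.089, adjusted p = 1.51e-04), and the call held in 17 of 17 refits that each dropped a further array. Over all 36 arrays the change was 0.21 ± 0.28 (adjusted p = 0.764). The rise at 4 h (0.68 ± 0.15, adjusted p = 0.00205) held in 6 of 6 refits that each dropped a further array. At 6 h the change was 0.56 ± 0.16 with 34 arrays (adjusted p = 0.0465) and -0.24 ± 0.49 with 36 (adjusted p = 0.887), and the call over 34 arrays held in 1 of 5 refits that each dropped a further array and was lost without corticosterone 6 h replicates 1 and 2 or corticosterone with RU486 6 h replicates 1 and 2 (adjusted p up to 0.456).

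The other 4 glycogen genes in the fit were not called over the times. With 34 arrays and RU486 added, glycogen synthase Gys1 gave 0.020 ± 0.077, branching enzyme Gbe1 0.18 ± 0.070 and liver phosphorylase Pygl 0.032 ± 0.066. With corticosterone Gys1 gave 0.010 ± 0.077, Gbe1 -0.16 ± 0.070 and Pygl 0.045 ± 0.066. A probe labelled Pgm2, a name that has stood for 2 phosphoglucomutase genes, was lower with both agents than with corticosterone at 4 h (12.60, 12.45 and 12.57 with both agents and 12.85, 12.99 and 13.02 with corticosterone). This fall of -0.41 ± 0.10 (adjusted p = 0.00612, 34 arrays) held in 6 of 6 refits that each dropped a further array. With 36 arrays it was called too (adjusted p = 0.0447), and that call was lost whichever of the 6 arrays was left out (adjusted p up to 0.186). Which of the 2 genes the probe measures was not settled.

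Among the gluconeogenic steps, the glucose-6-phosphatase G6pc3 was higher with corticosterone than with vehicle at 4 h. Its brightest probe read at 2 h 8.64, 9.61 and 9.60 with both agents, 9.56, 9.46 and 9.66 with corticosterone, 8.67, 9.48 and 9.84 with RU486 and 9.74, 9.77 and 8.40 with vehicle. At 4 h that probe read 9.32, 9.06 and 9.03 with both agents, 9.41, 9.10 and 9.23 with corticosterone, 9.37, 9.43 and 9.52 with RU486 and 8.95, 8.22 and 7.78 with vehicle. At 6 h that probe read 8.98, 9.39 and 6.76 with both agents, 9.06, 9.07 and 9.24 with corticosterone, 9.45, 9.32 and 9.13 with RU486 and 6.73, 9.00 and 9.14 with vehicle. At 4 h the corticosterone arrays lay between 9.10 and 9.41, and the vehicle arrays between 7.78 and 8.95. The change at 4 h was 0.93 ± 0.30 with 34 arrays (adjusted p = 0.0499, against 0.658 with 36), and the call held in 1 of 6 refits that each dropped a further array and was lost without corticosterone 4 h replicates 1, 2 and 3 or vehicle 4 h replicates 2 and 3 (adjusted p up to 0.283). A dimmer probe of G6pc3 gave -0.006 ± 0.11 there. Low values on the same vehicle arrays were seen for Hk1, whose probe read 7.85, 6.99 and 6.82 with vehicle at 4 h, against 8.20, 8.02 and 8.28 with corticosterone. The part of these arrays in the result was not tested. Pyruvate carboxylase Pcx and fructose bisphosphatase Fbp1 were not called over the times, with 0.13 ± 0.073 and -0.042 ± 0.061 when RU486 was added and -0.15 ± 0.073 and -0.050 ± 0.061 with corticosterone (34 arrays).

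G6pdx, the dehydrogenase that opens the pentose phosphate pathway and makes NADPH, rose when RU486 was added and fell with corticosterone in the fit of 34 arrays. Its 2 h readings were 9.88, 9.66 and 9.83 with both agents, 9.46, 9.34 and 9.41 with corticosterone, 9.84, 9.53 and 9.67 with RU486 and 9.69, 9.57 and 9.65 with vehicle. At 4 h it read 9.93, 9.79 and 9.78 with both agents, 9.32, 9.39 and 9.38 with corticosterone, 9.85, 9.82 and 10.03 with RU486 and 9.98, 9.73 and 9.70 with vehicle. Its 6 h readings were 9.75, 9.86 and 8.83 with both agents, 9.41, 9.38 and 9.95 with corticosterone, 9.56, 9.57 and 9.72 with RU486 and 7.47, 9.67 and 9.95 with vehicle. At 2 and 4 h the corticosterone arrays lay below all arrays of the other 3 groups. With RU486 added to corticosterone, G6pdx rose 1.28-fold over the times with 34 arrays (0.36 ± 0.070, adjusted p = 2.43e-04), and the call held in 17 of 17 refits that each dropped a further array. The 36 arrays together gave 0.25 ± 0.20 (adjusted p = 0.526). The rise at 2 h (0.39 ± 0.12, adjusted p = 0.0333) held in 1 of 6 refits that each dropped a further array and was lost without corticosterone 2 h replicates 1, 2 and 3 or corticosterone with RU486 2 h replicates 1 and 3 (adjusted p up to 0.0967), and that at 4 h (0.47 ± 0.12, adjusted p = 0.00544) held in 6 of 6 refits that each dropped a further array. Corticosterone lowered G6pdx over the times with 34 arrays (-0.30 ± 0.070, adjusted p = 0.00433), and the call held in 17 of 17 refits that each dropped a further array. With 36 arrays the change was -0.041 ± 0.20 (adjusted p = 0.937). The fall at 4 h (-0.44 ± 0.12, adjusted p = 0.0164, 34 arrays) held in 4 of 6 refits that each dropped a further array and was lost without corticosterone 4 h replicate 1 or vehicle 4 h replicate 1 (adjusted p up to 0.0856).

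Tkt, the transketolase of the same pathway, was lower when RU486 was added in both fits. It fell when RU486 was added over the times with 36 arrays (-0.28 ± 0.083, adjusted p = 0.0208), a call that held in 17 of 18 refits that each dropped an array and was lost without corticosterone 2 h replicate 3 (adjusted p = 0.0592). With 34 arrays it fell by 1.19-fold (-0.25 ± 0.081, adjusted p = 0.0174), a call that held in 17 of 17 refits that each dropped a further array. At 2 h Tkt read 11.11, 10.94 and 10.97 with both agents and 11.55, 11.25 and 11.72 with corticosterone, with no overlap. That fall (-0.50 ± 0.13, adjusted p = 0.019, 34 arrays) held in 2 of 6 refits that each dropped a further array and was lost without corticosterone 2 h replicates 1 and 3 or corticosterone with RU486 2 h replicates 2 and 3 (adjusted p up to 0.12). At 6 h Tkt read 11.63, 11.63 and 11.33 with both agents and 11.54, 11.61 and 11.40 with corticosterone, and these overlapped. 2 dimmer probes of Tkt gave 0.020 ± 0.071 and 0.20 ± 0.065 over the times with 34 arrays, the second of them called in the opposite direction, so the probes of Tkt disagree. Pgd and Taldo1, the other pentose phosphate genes, were not called over the times (-0.074 ± 0.079 and -0.18 ± 0.082 when RU486 was added, 0.014 ± 0.079 and -0.022 ± 0.082 with corticosterone, 34 arrays).

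RU486 given without corticosterone moved few members past the threshold. With 36 arrays limma called 0 of 33 at 2 h (0% of all genes), 0 at 4 h (0.00528%) and 0 at 6 h (0%), and 0 for the mean of the times (0.0739%). Before adjustment 2, 5, 11 and 4 members had a p under 0.05 in these comparisons, and the 11 at 6 h became 0 with 34 arrays. With 34 arrays limma called 0 at 2 h (3.19%), 3 at 4 h (4.01%) and 0 at 6 h (0%), and 0 for the mean of the times (1.49%). The unadjusted p was under 0.05 for 10 members at 2 h, 0 at 6 h and 5 for the mean. The 3 at 4 h were Ppp1r3c, lower as given above, and Hk1 and G6pc3, higher by 1.33 ± 0.31 (adjusted p = 0.0157) and 1.12 ± 0.30 (adjusted p = 0.0323). Hk1, the hexokinase of brain, read 8.32, 8.69 and 8.63 with RU486 and 7.85, 6.99 and 6.82 with vehicle. For Hk1 and G6pc3 the 4 h vehicle group was the lowest of its time. Mean levels of Hk1 were 8.22 with both agents, 8.16 with corticosterone, 8.55 with RU486 and 7.22 with vehicle. Those of G6pc3 were 9.14, 9.25, 9.44 and 8.32 in the same order. The dimmer G6pc3 probe read 6.66, 6.88 and 6.68 with RU486 and 6.92, 6.78 and 6.55 with vehicle. The part of the vehicle arrays in these calls was not tested. The Hk1 call held in 2 of 6 refits that each dropped a further array and was lost without vehicle 4 h replicates 2 and 3 or RU486 4 h replicates 2 and 3 (adjusted p up to 0.12), and the G6pc3 call held in 2 of 6 refits that each dropped a further array and was lost without vehicle 4 h replicates 2 and 3 or RU486 4 h replicates 2 and 3 (adjusted p up to 0.239).

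Corticosterone with RU486 was also set against vehicle. Over the times 0 of 33 members were called with 36 arrays (0.512% of all genes, with an unadjusted p under 0.05 for 3 members) and 3 with 34 (6.47%). Ldha was higher than with vehicle (0.25 ± 0.061, adjusted p = 0.0182), a call that held in 13 of 16 refits that each dropped a further array and was lost without vehicle 6 h replicate 2 or corticosterone with RU486 6 h replicates 1 and 2 (adjusted p up to 0.0954). Ppp1r3c was lower (-0.26 ± 0.069, adjusted p = 0.0253), a call that held in 9 of 16 refits that each dropped a further array and was lost without corticosterone with RU486 2 h replicate 3, vehicle 4 h replicates 2 and 3, vehicle 6 h replicates 2 and 3, or corticosterone with RU486 6 h replicates 1 and 2 (adjusted p up to 0.0767). Pfkfb3 was lower (-0.22 ± 0.068, adjusted p = 0.0482), a call that held in 4 of 16 refits that each dropped a further array and was lost in the other 12, without vehicle 2 h replicate 1, vehicle 4 h replicates 2 and 3, vehicle 6 h replicates 2 and 3, both agents 2 h replicates 1 and 3, both agents 4 h replicates 1, 2 and 3, or both agents 6 h replicates 1 and 2 (adjusted p up to 0.135).

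Vehicle cultures changed with time as well. From the fit of 36 arrays 0 members were called at 4 h against 2 h (2.01% of all genes, with an unadjusted p under 0.05 for 4 members) and 3 at 6 h against 2 h (19.9%): Slc2a3 (0.44 ± 0.14) and Fbp1 (0.59 ± 0.17) higher and Ldha (-0.55 ± 0.17) lower. Each of these calls held in 3 of 6 refits that each dropped an array and was lost without vehicle 6 h replicate 1. Those of Slc2a3 (adjusted p up to 0.282) and Ldha (up to 0.362) were lost also without vehicle 2 h replicates 2 and 3, and that of Fbp1 (up to 0.252) also without vehicle 2 h replicates 1 and 2. With 34 arrays 6 were called at 4 h (19.4%) and 2 at 6 h (11.2%). At 4 h Aldoa (0.69 ± 0.15), Pgk1 (0.57 ± 0.11), Pfkfb2 (0.42 ± 0.15), Pgam1 (0.37 ± 0.11) and Fbp1 (0.30 ± 0.10) were higher and G6pc3 (-0.99 ± 0.30) lower. The calls for Aldoa and Pgk1 at 4 h held in 6 of 6 refits that each dropped a further array. That for Pgam1 held in 3 of 6 and was lost without vehicle 2 h replicate 2 or vehicle 4 h replicates 2 and 3 (adjusted p up to 0.146). Those for Pfkfb2, Fbp1 and G6pc3 held in 2 of 6, and were lost without vehicle 2 h replicates 1 and 2 or vehicle 4 h replicates 2 and 3 (adjusted p up to 0.373 for Pfkfb2, 0.161 for Fbp1 and 0.156 for G6pc3). At 6 h Pgk1 (0.59 ± 0.12) and Eno1 (0.61 ± 0.19) were higher. The Pgk1 call held in 4 of 5 refits that each dropped a further array and was lost without vehicle 6 h replicate 3 (adjusted p = 0.063), and the Eno1 call held in 1 of 5 refits that each dropped a further array and was lost without vehicle 2 h replicates 1 and 3 or vehicle 6 h replicates 2 and 3 (adjusted p up to 0.229).

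Of 13 members with more than 1 probe past the filter, 17 dimmer probes were tested as well with 34 arrays. When RU486 was added, 4 of the 17 were called over the times, where 31.2% of all genes were called by their brightest probe. Beside the Tkt probe, these were the second probes of G6pc3 (-0.22 ± 0.069), Pgm2 (-0.22 ± 0.076) and Pygl (-0.21 ± 0.075), all lower. With corticosterone 2 of the 17 were called over the times (12.4% of all genes by their brightest probe). These were the third probe of Tpi1 (0.35 ± 0.087) and the second of Pfkm (0.22 ± 0.062), both higher. Slc2a1, Ldha, Gapdh, Ppp1r3c, Ugp2, Pygb, G6pdx, Aldoa, Eno1 and Eno2 each had a single probe past the filter, so no other probe bears on them.

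Other genes of glucose metabolism were set beside the members as a list of 59, with 50 in the fit. With corticosterone over the times 0 of 50 were called with 36 arrays (2.96% of all genes, 9 of the 50 had an unadjusted p under 0.05) and 4 with 34 (12.4% of all genes), all lower. These were the glucose transporter Slc2a10 (-0.40 ± 0.083, adjusted p = 0.00149), the starch-binding glycogen protein Stbd1 (-0.21 ± 0.059, adjusted p = 0.0191), the phosphorylase kinase subunit Phka2 (-0.20 ± 0.068, adjusted p = 0.0458) and the glycogen phosphatase scaffold Ppp1r3d (-0.20 ± 0.056, adjusted p = 0.0148). When RU486 was added, 6 were higher and 1 lower with 36 arrays (12.9% of all genes called in either direction), and 9 higher and 5 lower with 34 (31.2%). Named after their values were seen, Pkm, the pyruvate kinase between Eno1 and Ldha, changed by 0.52 ± 0.10 with 34 arrays (adjusted p = 3.28e-04), and Phkb, another phosphorylase kinase subunit, by 0.71 ± 0.13 with 34 and 0.76 ± 0.13 with 36.

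Hypoxia-inducible genes outside glucose metabolism, which share a regulator with many glycolytic genes, were a further list of 14, with 13 in the fit. With corticosterone over the times 1 rose with 36 arrays (2.96% of all genes called in either direction) and 3 with 34 (12.4%), and 0 fell in either fit. The collagen prolyl hydroxylase P4ha2 rose in both fits (0.47 ± 0.11 with 36 arrays and 0.51 ± 0.10 with 34). Adrenomedullin, Adm, (0.52 ± 0.10) and P4ha1 (0.23 ± 0.078) rose with 34. Under added RU486 0 rose and 2 fell with 36 arrays (12.9% of all genes called in either direction), and 2 rose and 6 fell with 34 (31.2%). The 8 are named after their values were seen. With 34 arrays P4ha2 (-0.70 ± 0.10), the carbonic anhydrase Car9 (-0.55 ± 0.15), Adm (-0.50 ± 0.10), Higd1a (-0.36 ± 0.092), P4ha1 (-0.35 ± 0.078) and Egln3 (-0.25 ± 0.072) fell, and the prolyl hydroxylase Egln1 (0.22 ± 0.078) and Ndrg1 (0.20 ± 0.078) rose. With 36 arrays P4ha2 (-0.63 ± 0.11) and Car9 (-0.51 ± 0.15) fell.

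Some markers of other cell types were called in the same comparisons over the times. With 34 arrays these called 31.2% of all genes when RU486 was added and 12.4% with corticosterone. When RU486 was added, with 34 arrays, 1 of 5 microglia markers was called (Csf1r, 0.49 ± 0.089), 3 of 6 neuron markers (Gap43, 0.49 ± 0.085, Stmn2, 0.35 ± 0.077, and Syt1, -0.21 ± 0.062), 1 of 5 fibroblast or meningeal markers (Col1a1, 0.66 ± 0.17), 0 of 7 oligodendrocyte lineage markers and 0 of 4 endothelial markers. With corticosterone 1 of 5 microglia markers (Csf1r, -0.29 ± 0.089) and 1 of 6 neuron markers (Gap43, -0.29 ± 0.085) were called. Over the 34 arrays the summed linear intensity of the 6 neuron markers spanned 7889.6 to 10256.7 with both agents, 7481.8 to 8610.0 with corticosterone and 5898.6 to 10484.3 with vehicle. That of the 5 microglia markers spanned 1412.1 to 2470.7 with both agents, 1113.2 to 2344.8 with corticosterone and 1552.5 to 1994.6 with vehicle. That of the 5 fibroblast or meningeal markers spanned 1533.1 to 2490.4 with both agents, 1298.7 to 1982.0 with corticosterone and 1456.9 to 2125.0 with vehicle. Astrocyte genes moved too: with 34 arrays Gfap changed by 1.79 ± 0.20 when RU486 was added and by -0.91 ± 0.20 with corticosterone, and Glul, glutamine synthetase, by -0.68 ± 0.089 when RU486 was added and 0.73 ± 0.089 with corticosterone. Of 9 astrocyte markers 4 were called when RU486 was added (31.2% of all genes) and 2 with corticosterone (12.4%). Their summed intensity spanned 87919.8 to 107071.5 with both agents, 63196.5 to 88378.5 with corticosterone and 68094.1 to 101881.7 with vehicle. The sums of the 7 oligodendrocyte lineage markers spanned 17869.7 to 28783.3 with both agents, 24071.0 to 29657.1 with corticosterone and 24108.0 to 29590.0 with vehicle, and those of the 4 endothelial markers 390.6 to 516.8 with both agents, 398.9 to 472.4 with corticosterone and 425.8 to 457.9 with vehicle. The part of these shifts in the changes of glucose genes was not tested.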

How the data were processed

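RNA of 36 arrays was measured on Illumina bead arrays, and per the submitters' processing notes GenomeStudio was used. The authors deposited a linear intensity for each of 45281 probes. The array medians of 110.5 to 111.2 and the near-equal sorted columns show values already normalized between arrays. No background had been subtracted, which understates changes of dim probes. A second deposited table has 72 per-sample columns whose names match no label, and only its probe and gene names were used. Log2 intensities of 28397 probes brighter than the array median on at least 3 arrays were kept, with the brightest probe standing for a gene. Symbols were matched to RefSeq GRCm38.p6: 11703 were current, 3845 were updated and 4499 were kept as deposited.

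limma 3.58.1 in R 4.3.3 fitted 12 group means, with Benjamini-Hochberg adjustment over 18937 genes and a threshold of 0.05. The fit was tested on simulated data. The members and lists were chosen with earlier results of these data known, as were the 2 arrays set aside. Every array's value is given for up to 12 members, taken by the size of their change over the times without the 2 arrays among members called with corticosterone or with RU486 added. Replicate numbers were not taken as a pairing. A correlation of deviations over 0.1 was asked of every same-numbered pair, a rule so hard to meet that it cannot exclude a pairing. The correlation had a median of 0.049 over 198 same-numbered pairs, 77 of them over 0.1. Over 396 differently numbered pairs the median was -0.015, with 114 of them over 0.1. Precision is limited by 3 arrays a group. Left-out arrays, array weights, filters, normexp with an offset of 16, an intensity trend with robust prior, all probes and smaller fits were tried as alternatives.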

Additional observations from a re-analysis of the deposited data

Results flagged for a closer look

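In 3 of the 33 members (9.09%) RU486 alone and vehicle did not overlap at more than 1 time and differed in opposite directions, by log2 changes with all 36 arrays. The same held for 602 of all 18937 genes (3.18%). Pgam1, phosphoglycerate mutase, gave -0.39 at 2 h, -0.22 at 4 h and 0.84 at 6 h, and the 6 h value was 0.14 without the 2 arrays that stood apart. Fbp1 gave 0.23 at 2 h and -0.17 at 4 h. Taldo1, transaldolase, gave 0.35 at 2 h and -0.44 at 4 h. None of these changes passed limma's adjusted threshold, and the differences between the times were not tested.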

How the results depend on the processing

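The number of members called differed between settings, and in most comparisons array weights moved it furthest. Apart from the fit without the 2 arrays, the share of all genes called is not given for these settings, here and below. A setting may raise the calls of all genes alike, so these counts do not set the members apart from other genes. Without the 2 arrays, corticosterone against vehicle called 6 members at 4 h, 1 at 6 h and 6 for the mean of the times. RU486 added to corticosterone called 4, 6 and 2 at 2, 4 and 6 h and 13 for the mean of the times, RU486 alone 3 at 4 h, both agents against vehicle 3, and vehicle at 4 h against 2 h 6. With array weights the counts were 21 at 4 h, 4 at 6 h and 16 for the mean with corticosterone, 5, 17 and 12 for RU486 added at 2, 4 and 6 h and 19 for the mean of its times, 1, 12, 1 and 3 for RU486 alone, 8 for both agents against vehicle and 6 for vehicle at 4 h and 6 at 6 h against 2 h. With only the compared groups in the fit, they were 8 for corticosterone at 4 h, 15 and 10 for RU486 added at 4 h and over the times, 1 for RU486 alone at 4 h and 0 for vehicle at 6 h. With all probes tested they were 1 for RU486 added at 4 h and 2 and 7 for vehicle at 4 h and 6 h, and for RU486 added at 4 h normexp gave 0 and the intensity trend 1.

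Changes that turned sign included that of Pygb with RU486 added at 6 h (0.56 without the 2 arrays, 0.58 with weights). That of Eno1 with RU486 added over the times did so too (0.38 in both). In vehicle at 6 h against 2 h, Pgk1 turned sign (0.59 without the 2 arrays, 0.48 with weights). With 1 array left out Pgk1 gave -0.35 to 0.59. Eno1 turned sign there as well (0.61 without the 2 arrays). The list is not complete, and further sign changes with 1 array left out are not given. The cause was not tested.

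With 1 of 36 arrays left out in turn, RU486 added gave 0 to 2, 0 to 4 and 0 to 2 members at 2, 4 and 6 h and 3 to 11 for the mean of the times. Corticosterone gave 0 to 0, 0 to 1, 0 to 9 and 1 to 3. RU486 alone gave 0 to 0, 0 to 0, 0 to 12 and 0 to 0, both agents against vehicle 0 to 1, and vehicle at 4 h 0 to 2 and at 6 h 0 to 14. With 1 further array left out of the 34, a range chosen after seeing the data, RU486 added gave 1 to 5, 5 to 13, 0 to 6 and 12 to 16, and corticosterone 0 to 3, 0 to 9, 0 to 2 and 3 to 11. RU486 alone gave 0 to 3, 0 to 4, 0 to 0 and 0 to 2, both agents against vehicle 0 to 5, and vehicle at 4 h 2 to 10 and at 6 h 0 to 4.

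With the replicate number as a block, which was not taken as a pairing, 1 member was called for corticosterone over the times, 2 and 6 for RU486 added at 4 h and over the times, and 4 for vehicle at 6 h. neqc, detection p filters and the bead chip as a block were not run because the table that would give them matches no sample. Dim probes limit what Slc16a1, Slc16a3, Gys1, Fbp1, Pfkfb3 and Gbe1 can show.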
